A study of Mus musculus with 8 samples.

Results

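The genes described here encode the mitochondrial respiratory chain in mouse kidney: the subunits of NADH dehydrogenase (complex I), succinate dehydrogenase (complex II), the cytochrome bc1 complex (complex III), cytochrome c oxidase (complex IV) and ATP synthase (complex V), with the complex I assembly factors that carry the Nduf prefix. They were taken by symbol (Nduf, Sdha to Sdhd, Uqcr, Cox4 to Cox8 and Atp5 genes). Of 91 such genes named on the array, 88 had a probe that stood well above background in 4 or more of 8 arrays, against 13570 named genes in all that passed this filter. The 3 that did not pass, Cox4i2, Cox7b2 and Cox8c, were well above background on 0 arrays and encode forms of complex IV subunits best known from lung or testis.

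Complex I takes electrons from NADH and complex II takes them from succinate, both pass them to ubiquinone, and complexes III and IV carry them on to oxygen. Complexes I, III and IV pump protons, and complex V uses the gradient to make ATP. Most subunits are encoded in the nucleus, and several of complex IV exist as a liver form found in most tissues and a heart or muscle form. The kidney tubule reabsorbs salt and water at a high cost in ATP and is among the tissues richest in mitochondria. Nrf2 is a transcription factor that switches on antioxidant and detoxification genes, and Keap1 holds it down by sending it for degradation. It is a different protein from nuclear respiratory factor 1 (gene symbol Nrf1), which binds the promoters of many respiratory chain genes.

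RNA of whole kidneys from 8 mice aged 8 weeks, on a mixed 129Sv/J and C57BL/6J background, was hybridised to 1-colour Agilent arrays. The 4 NEKO mice were Keap1-/-::Nrf2Flox/Flox::K5-Cre, 2 of them female (replicates 2 and 3) and 2 male (replicates 5 and 6). The 4 control littermates were Keap1 heterozygotes. Of these, 3 were Keap1+/-::Nrf2Flox/Flox::K5-Cre (replicate 8, female, and replicates 4 and 7, male) and 1 was Keap1+/-::Nrf2Flox/Flox (replicate 1, female). All 8 mice carried floxed Nrf2 alleles. The Keratin5 promoter drives Cre in squamous epithelium, so Keap1 was missing in the whole body of NEKO mice while Nrf2 was removed only there, and no kidney in this comparison had 2 normal copies of Keap1.

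Levels are log2 of the processed signal less the 75th percentile of its array, so a level of 5 is a signal 5 doublings above that percentile, and a change is the NEKO level minus the control level from a limma fit with sex as a term. Genes were called where the adjusted p, taken over all 19593 features tested, was under 0.05. Between 61.8% and 65.7% of the probes were well above background on each array and 0 spots were saturated, and the number of arrays limits the precision. Keap1, the deleted gene, separated the groups, with levels of 1.77 to 1.92 in controls and 0.06 to 0.45 in NEKO mice, a change of -1.63 (SE 0.10, adjusted p = 0.0046 from limma). Nqo1, an Nrf2 target, was 2.62 higher (SE 0.43, adjusted p = 0.065 from limma). Slide 2 held the females and slide 1 the males, 2 mice of each group on either, so sex cannot be told apart from slide. In whole kidney RNA, fewer cells of a type and less RNA per cell cannot be told apart.

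The nuclear respiratory factor 1 motif, searched as GCGCNTGCG on both strands, was the most frequent in their promoters of 5 motifs searched. RefSeq promoter windows of GRCm38.p6, which run from 250 bases before the gene start to 50 after it, were available here for 74 of the 88 genes, and 26 of the 74 held the letters (35.1%), against 13.9% of the 10828 tested named genes with a window and 7.12% of the 27025 genes in the table. Pieces around the motif are shown for 5 genes described below, to set genes that lay lower in NEKO kidneys beside genes that did not. They are written 5' to 3' on the strand of the gene, from upstream of its start, with the motif or its reverse complement in capitals.
Ndufaf4, chr4:24897951-24897999, plus strand: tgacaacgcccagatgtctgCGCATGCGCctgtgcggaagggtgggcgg
Ndufa12, chr10:94198895-94198943, plus strand: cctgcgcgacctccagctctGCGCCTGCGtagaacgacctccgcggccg
Atp5g2, chr15:102671060-102671108, minus strand: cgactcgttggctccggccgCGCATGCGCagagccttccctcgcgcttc
Sdhd, chr9:50603899-50603947, minus strand: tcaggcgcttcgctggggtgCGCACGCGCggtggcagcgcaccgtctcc
Cox6a1, chr5:115349046-115349094, minus strand: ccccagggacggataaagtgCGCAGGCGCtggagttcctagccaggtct
Ndufaf4, Ndufa12 and Atp5g2 lay below all controls in every NEKO mouse, Sdhd lay above all of them, and Cox6a1 overlapped. Overlapping matches on opposite strands occur where the letters read the same both ways, as in the Atp5g2 and Ndufaf4 pieces, and such a gene was counted once.

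The other letters searched were CCGGAAG for ETS factors such as Gabpa, AAGATGGCG for YY1, AAGGTCA for estrogen-related receptors and TGACNNNGC for the antioxidant response element to which Nrf2 binds. The ETS letters were in 18 of the 74 windows (24.3%, against 18.1% of tested named genes) and the YY1 letters in 7 (9.46% against 3.20%). The estrogen-related receptor letters were in 8 (10.8% against 4.28%). The antioxidant response element letters were in 11 (14.9%), close to the 16.6% of tested named genes and 14.0% of the whole table. They also open the Ndufaf4 piece above, where they are in lower case. In all, 42 of the 74 windows held letters of nuclear respiratory factor 1, ETS or YY1. The genes with the nuclear respiratory factor 1 letters had a median change of -0.163, from -0.30 to 0.15, and those without them one of -0.165. With and without the ETS letters it was -0.144 and -0.1675, and for YY1 -0.149 and -0.165. For the estrogen-related receptor letters it was -0.109 and -0.165, and for the antioxidant response element -0.165 and -0.163. These differences were not tested. A match is a description of the letters and not a bound site.

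**Figure D1:**
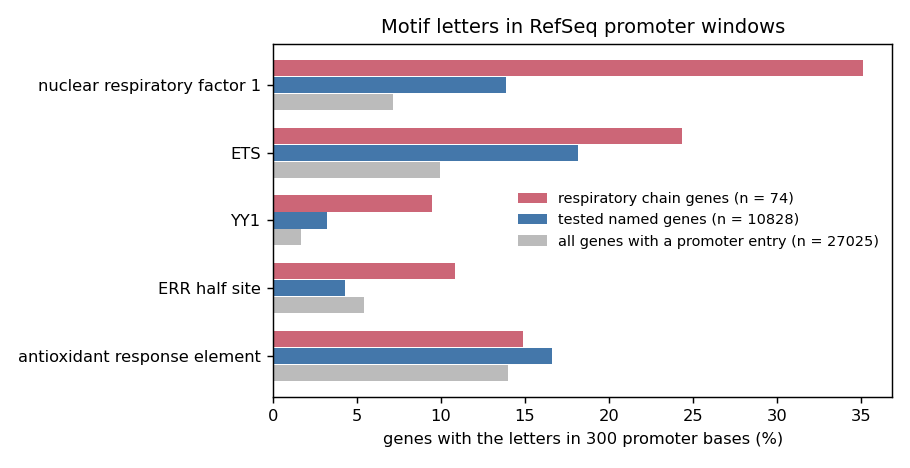
Share of genes (%, x axis) whose RefSeq promoter window holds each motif on either strand, for the respiratory chain genes, the tested named genes and all genes in the table. The nuclear respiratory factor 1 letters are in 35.1% of respiratory chain genes and 13.9% of tested genes, while the antioxidant response element letters are in 14.9% and 16.6%.

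Respiratory chain genes lay slightly lower in NEKO kidneys across nearly the whole set, and no single gene passed the test. The fitted change was below 0 for 79 of the 88 genes (89.8%), while it was below 0 for 53.9% of all named genes tested. The median change was -0.16, against -0.02 over all named genes, and the 88 changes ran from -0.88 (Cox6a2) to 1.05 (Cox8b). By limma, 0 of the 88 were called higher and 0 lower, where 0.111% and 0.169% of named genes were. At an unadjusted p under 0.05 limma gave 0 higher and 27 lower (30.7%), where 8.16% and 10.1% of named genes were higher and lower. In 15 genes (17.0%) every NEKO mouse lay below every control, as did 5.06% of named genes, and in 1 gene, Sdhd, every NEKO mouse lay above, as did 4.49% of named genes. The median standard error of a change was 0.08. Counts of genes without overlap given below by complex and list come from small sets and are to be read against the same shares of named genes.

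Each gene was set relative to its mean in controls and the median over the 88 genes was then taken in each mouse. It was -0.17 and -0.18 in NEKO females and -0.17 and -0.16 in NEKO males. In the controls it was 0.06 (replicate 1) and -0.14 (replicate 8) in females, and 0.00 (replicate 4) and 0.09 (replicate 7) in males. The NEKO mice were thus close to each other, and the control female replicate 8 lay nearer to them than to the other controls. It had 82 of the 88 genes below the control mean, more than any NEKO mouse (81, 76, 74 and 78 in replicates 2, 3, 5 and 6), while the other controls had 17, 45 and 5 (replicates 1, 4 and 7). Over all named genes the same medians ran only from -0.04 to 0.01 across the 8 mice. Without replicate 8, 55 genes lay lower with no overlap in place of 15, where 8.72% of named genes did, and 42 had an unadjusted p under 0.05 in place of 27, with a median of -0.20. The unadjusted count was 7 (7.95%, against 8.24% of named genes) without control replicate 1, the 1 control without K5-Cre, and 8 (9.09% against 7.01%) without control replicate 7. It was 11 (12.5% against 7.61%) without NEKO replicate 6 and 17 (19.3% against 7.98%) without control replicate 4, and in these 4 cases the median change was between -0.18 and -0.13.

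**Figure D2:**
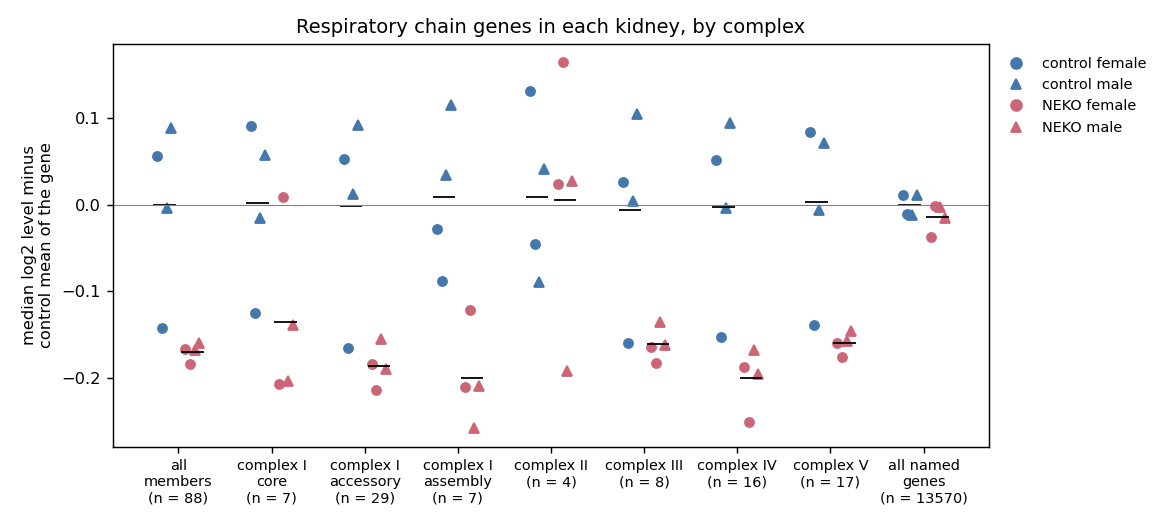
Median, over the genes of each set, of the log2 level minus the control mean of the gene (y axis), with 1 point for each mouse and a black line at the group mean. Over all members the 4 NEKO mice sit between -0.18 and -0.16 and the controls between -0.14 and 0.09, and in complex II the groups overlap across 0.

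The median change was below 0 in both sexes, but the 2 female controls differed. By mouse, replicate 8, the female control with K5-Cre, had a median of -0.14, close to the -0.17 and -0.18 of NEKO females. Replicate 1, without K5-Cre, had one of 0.06. The median change was -0.13 in females, with 78 genes below 0, and -0.21 in males, with 81 below 0, and 76 genes were below 0 in both. By limma 0 of the 88 genes were called for a sex by genotype interaction, where 0.0147% of named genes were, and 0 had one at an unadjusted p under 0.05, where 11.1% of named genes did. When all features were split by level into 5 equal classes, 81 of the 88 genes were in the brightest, where the median change over all features was -0.03 and 57.4% were below 0. Control levels ran from -2.25 (Cox8b) to 8.11 (Cox6a1) with a median of 5.71. These are levels of different probes and do not rank the transcripts.

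In complex I the medians of the core, the accessory subunits and the assembly factors were all below 0. Of the 7 core subunits encoded in the nucleus, which hold the flavin, the iron-sulphur clusters and part of the quinone site, 5 were below 0 with a median of -0.16, and 2 had an unadjusted p under 0.05. Ndufs1, the largest core subunit and an iron-sulphur protein, had levels of 5.94 and 5.62 in control females and 5.77 and 5.81 in control males. In NEKO mice it was 5.00 and 5.76 in females and 5.54 and 5.60 in males, a change of -0.31 (SE 0.17, adjusted p = 0.377 from limma). The groups overlapped, and NEKO replicate 2 was the lowest of the 8. Ndufv1, which holds the flavin that accepts electrons from NADH, was at -0.22 (SE 0.07, adjusted p = 0.198 from limma), whereas Ndufs7 and Ndufs8, iron-sulphur subunits close to the quinone site, were at 0.02 and 0.00.

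Accessory subunits surround the core of complex I. Of the 29, 27 were below 0 with a median of -0.16, 8 had an unadjusted p under 0.05, and the groups did not overlap in 3, Ndufb2, Ndufa12 and Ndufa6. Ndufa12 was 6.14 and 5.90 in control females and 5.98 and 6.12 in control males, and 5.82, 5.81, 5.78 and 5.79 in NEKO replicates 2, 3, 5 and 6, a change of -0.24 (SE 0.08, adjusted p = 0.204 from limma). The NEKO levels lay within a narrow band under the lowest control, replicate 8. Ndufb2 was 5.75, 5.51, 5.76 and 5.84 in control replicates 1, 8, 4 and 7 and 5.46, 5.50, 5.44 and 5.51 in NEKO replicates 2, 3, 5 and 6, so that it did not overlap by a margin smaller than the 2 decimals show. Ndufb11 had the lowest fitted change of the accessory subunits, at -0.26 (SE 0.09, adjusted p = 0.206 from limma), and its groups overlapped. The 2 accessory subunits above 0 were Ndufa2 at 0.10 and Ndufa7 at 0.08, and the kept probes of Ndufa7 disagreed in sign.

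All 7 complex I assembly factors with the Nduf prefix were below 0, with a median of -0.17, and 4 of them did not overlap between groups, although their levels were well below those of most subunits. Ndufaf1, which helps to build the membrane arm as part of an intermediate complex, was 2.60, 2.57, 2.83 and 2.79 in control replicates 1, 8, 4 and 7. In NEKO replicates 2, 3, 5 and 6 it was 2.38, 2.44, 2.33 and 2.39, a change of -0.31 (SE 0.08, adjusted p = 0.141 from limma). Every NEKO mouse lay below every control, and here replicate 8 did not stand apart from replicate 1. Ndufaf2, a late-acting factor bound to the intermediate that lacks Ndufa12, was 2.97, 3.10, 3.19 and 3.30 in the controls and 2.84, 2.77, 2.86 and 2.91 in NEKO mice, in the same order of replicates, a change of -0.30 (SE 0.07, adjusted p = 0.138 from limma). Ndufaf4, the factor whose promoter piece is shown above, was 3.21, 3.07, 3.25 and 3.34 in the controls and 2.98, 2.77, 3.02 and 2.92 in NEKO mice, a change of -0.30 (SE 0.08, adjusted p = 0.155 from limma). Ndufaf3 was lower in each NEKO mouse too (-0.17, SE 0.07), while Ndufaf6 was nearest to 0, at -0.05. The exact two-sided permutation test of 4 mice against 4 gave p = 0.0286 for each gene whose groups did not overlap, which is the smallest p this design allows. This value follows from the lack of overlap by which the genes were picked and adds no support.

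Complex II, whose 4 genes are all encoded in the nucleus, was mixed, with 2 changes on each side of 0 and a median of 0.00. Its difference from the other complexes was not tested. Sdhb, the iron-sulphur subunit, was 5.88, 5.50, 5.79 and 5.81 in control replicates 1, 8, 4 and 7 and 5.48, 5.41, 5.48 and 5.58 in NEKO replicates 2, 3, 5 and 6, a change of -0.26 (SE 0.10, adjusted p = 0.236 from limma). Only the control female replicate 8 kept the groups from separating. Sdhd, a membrane anchor that binds quinone, was 5.38, 5.36, 5.24 and 5.33 in the controls and 5.44, 5.60, 5.39 and 5.48 in NEKO mice, a change of 0.15 (SE 0.07, adjusted p = 0.320 from limma). It was the 1 gene of the 88 that lay above all controls in every NEKO mouse, and under normexp background correction its groups overlapped. Sdha, the flavin subunit that oxidises succinate, was at -0.02 (SE 0.11) with probes that disagreed in sign, and Sdhc, the other anchor, was at 0.03 (SE 0.10).

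**Figure D3:**
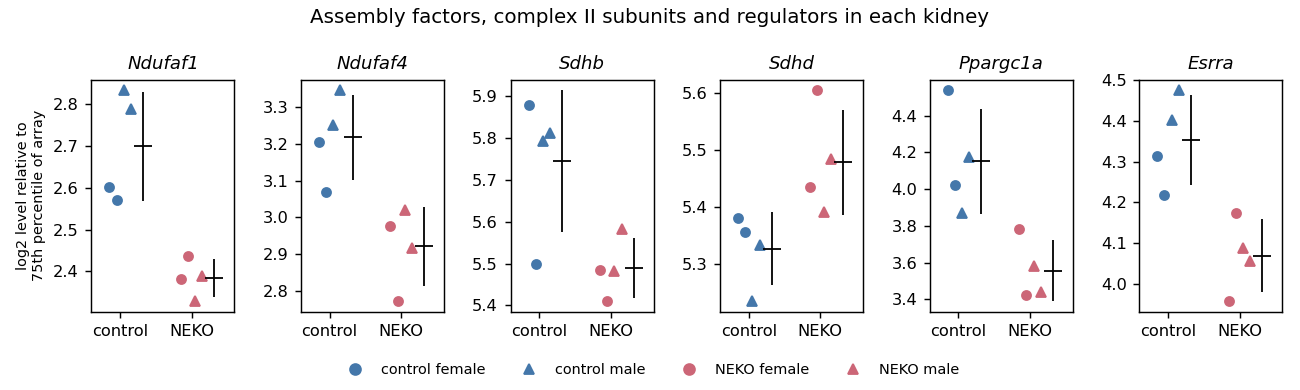
Level, as log2 signal less the 75th percentile of its array (y axis, a separate scale in each panel) in each mouse for 2 assembly factors, 2 complex II subunits and 2 regulators, with the group mean and SD in black. Sdhb and Sdhd lie in opposite directions, at -0.26 and 0.15, and the groups of Ppargc1a and Esrra do not overlap.

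In complex III 7 of 8 genes were below 0, with a median of -0.16. The small subunits Uqcrq and Uqcr10 had the lowest changes, both at -0.20 (SE 0.09 and 0.08, adjusted p = 0.277 and 0.253 from limma). Uqcrq was 7.26, 6.98, 7.41 and 7.33 in control replicates 1, 8, 4 and 7 and 6.95, 6.99, 7.16 and 7.07 in NEKO replicates 2, 3, 5 and 6, and the groups overlapped through replicate 8. Uqcrfs1, the Rieske iron-sulphur protein, was the 1 gene of complex III whose groups did not overlap (-0.15, SE 0.07, adjusted p = 0.306 from limma). Uqcrc1, a core protein, was at 0.02 (SE 0.12), and its probes disagreed in sign.

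All 17 genes of complex V were below 0, from -0.34 (Atp5g1) to -0.06 (Atp5e), with a median of -0.15, and 3 did not overlap, Atp5g1, Atp5g2 and Atp5o. The Atp5g genes encode the same ring subunit, which turns as protons pass. Atp5g1 was 6.34, 5.98, 5.99 and 6.09 in control replicates 1, 8, 4 and 7 and 5.79, 5.92, 5.59 and 5.73 in NEKO replicates 2, 3, 5 and 6, a change of -0.34 (SE 0.10, adjusted p = 0.171 from limma). Atp5g2 was at -0.22 (SE 0.08, adjusted p = 0.221 from limma) and Atp5g3 at -0.06 (SE 0.09, adjusted p = 0.717 from limma), and the sign of Atp5g3 turned under quantile normalization. Differences among the 3 were not tested. Atp5d, the delta subunit of the stalk, was at -0.24 (SE 0.08, adjusted p = 0.207 from limma). Respiratory chain genes have many processed pseudogenes and near-identical family members, and a probe may take up signal from them.

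**Figure D4:**
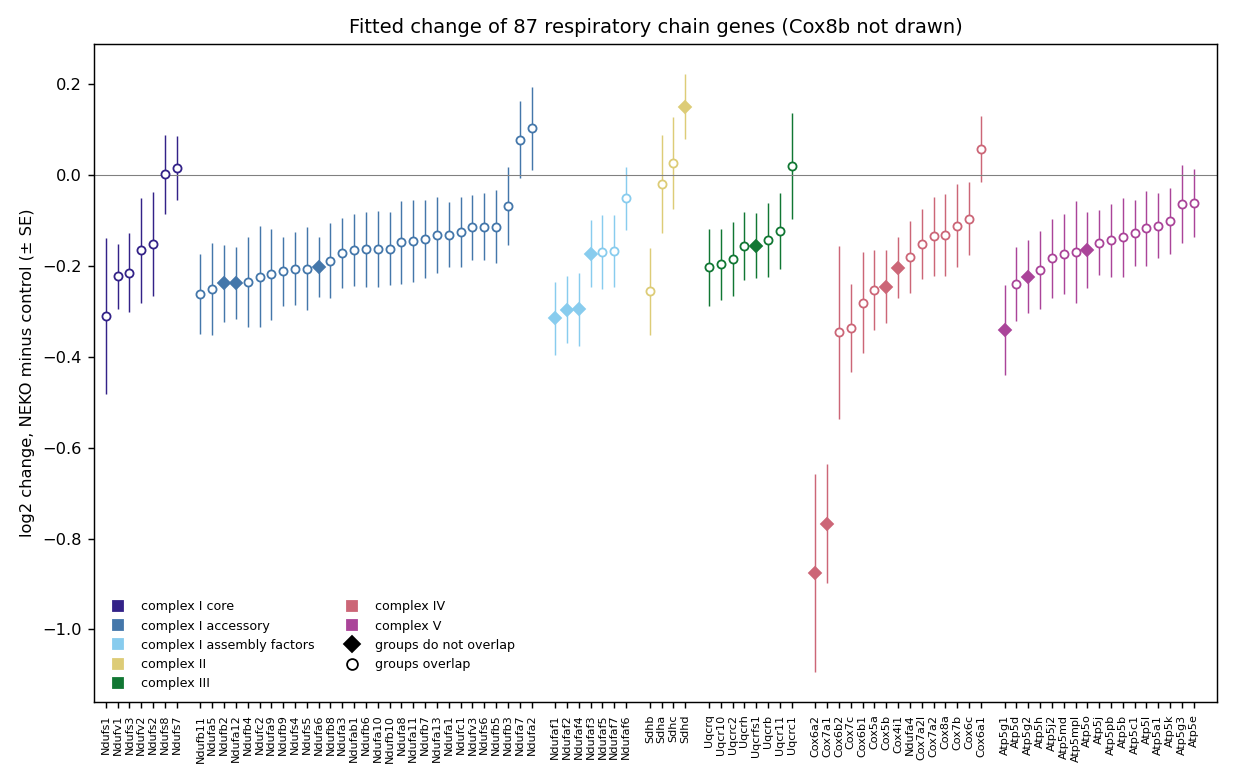
Fitted log2 change, NEKO minus control, with its standard error (y axis) for 87 respiratory chain genes ordered by size within each complex, with filled diamonds where the groups do not overlap. Cox8b, at 1.05 with a standard error of 1.34, is not drawn. Most genes lie between -0.3 and 0, Cox6a2 and Cox7a1 lie lowest, and Sdhd is the only filled diamond above 0.

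The lowest changes of the 88 were those of Cox6a2 and Cox7a1, the heart and muscle forms of complex IV subunits. Of its 16 genes 14 were below 0, with a median of -0.19, and 4 did not overlap, Cox7a1, Cox6a2, Cox5b and Cox4i1. Cox7a1, the heart and muscle form of subunit 7a, was 3.92 and 3.94 in control females and 3.74 and 4.07 in control males. In NEKO mice it was 3.30 and 3.47 in females and 2.79 and 3.05 in males, a change of -0.77 (SE 0.13, 1.70-fold lower, adjusted p = 0.070 from limma). The highest NEKO level lay clearly under the lowest control, and the NEKO males were lower than the NEKO females. When genotype was fitted within each sex and both effects averaged, the adjusted p of Cox7a1 from limma was 0.029, and with normexp background correction it was 0.039, and over all adjusted alternatives the p ran from 0.029 to 0.345. Cox7a2, the liver form, was at -0.13 (SE 0.09), and its groups overlapped.

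Cox6a2, the heart and muscle form of subunit 6a, was 0.73 and 0.43 in control females and 1.04 and 0.55 in control males, and -0.14 and 0.27 in NEKO females and -0.21 and -0.68 in NEKO males. The change was -0.88 (SE 0.22, 1.84-fold lower, adjusted p = 0.134 from limma), and every NEKO mouse lay below every control. Cox6a1, the liver form, lay on the other side of 0, at 0.06 (SE 0.07). Cox6b1, which lies at the interface of the complex IV dimer, was at -0.28 (SE 0.11, adjusted p = 0.255 from limma), and Cox6b2, known as its testis form, was at -0.35 (SE 0.19, adjusted p = 0.377 from limma) with overlapping groups. Cox4i1, the form of subunit 4 found in most tissues, was 7.60 to 7.76 in controls and 7.43 to 7.54 in NEKO mice, a change of -0.20 (SE 0.07, adjusted p = 0.203 from limma). Cox5b, a zinc-binding subunit, was 7.32, 7.09, 7.20 and 7.28 in control replicates 1, 8, 4 and 7 and 6.95, 6.96, 7.07 and 6.92 in NEKO replicates 2, 3, 5 and 6, a change of -0.25 (SE 0.08, adjusted p = 0.201 from limma). Cox7b was at -0.11, Cox8a at -0.13 and Ndufa4, a complex IV subunit named after complex I, at -0.18, and Cox7a2l, a factor that joins complexes III and IV, was at -0.15.

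Of 15 skeletal and cardiac muscle markers, 9 were not tested, among them Ckm and Mb, which were well above background on 0 arrays. The summed level of those tested ran from 0.25 to 0.84 in controls and from 0.34 to 0.91 in NEKO mice. Of the 6 tested, 4 were above 0, with a median of 0.08. They were Tnni2 (0.48), Acta1 (0.24), Actc1 (0.16) and Atp2a1 (0.00), while Mylpf (-0.01) and Myh7 were below 0. The median was -0.21 in females, with 5 of 6 below 0, and 0.29 in males, with 3 of 6 below 0. Tnni2 was at -0.18 in females and 1.15 in males. Myh7, a heart and slow muscle myosin, had levels of -3.90 to -3.74 in controls and -7.33 to -5.99 in NEKO mice. It passed the filter through the controls alone, being well above background on 4 control and 0 NEKO arrays, and is given without a test. The part of muscle RNA in Cox7a1 and Cox6a2 was not tested.

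Cox8b, the heart, muscle and brown fat form of subunit 8, did not follow genotype. It was -3.64 and -0.98 in control females and -4.66 and 0.29 in control males, and 1.08 and -1.98 in NEKO females and -3.23 and -0.67 in NEKO males, a change of 1.05 (SE 1.34, adjusted p = 0.697 from limma). NEKO replicate 2 and control replicate 7 were highest and control replicate 4 lowest. Ucp1, the uncoupling protein that defines brown fat, had nearly the same order, with -3.38, -1.08, -5.75 and 0.53 in control replicates 1, 8, 4 and 7 and 1.72, -1.24, -4.21 and -0.25 in NEKO replicates 2, 3, 5 and 6. Adipoq, a hormone of fat cells, was 1.79 in control replicate 8 and 1.88 in NEKO replicate 2 and lowest in control replicates 1 and 4, at -2.28 and -2.87. The summed level of the 4 brown adipocyte markers tested ran from -0.13 to 2.69 in controls and from -0.08 to 3.33 in NEKO mice, and that of the 8 adipocyte markers from 4.81 to 6.47 and from 5.28 to 6.73. Leaving out control replicate 8 and NEKO replicate 2, the 2 mice of highest adipocyte level, gave a median of -0.20, 81 of 88 genes below 0 and 55 lower genes whose groups did not overlap, where 11.2% of named genes did not. The part of fat RNA in the other genes of the set was not tested.

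**Figure D5:**
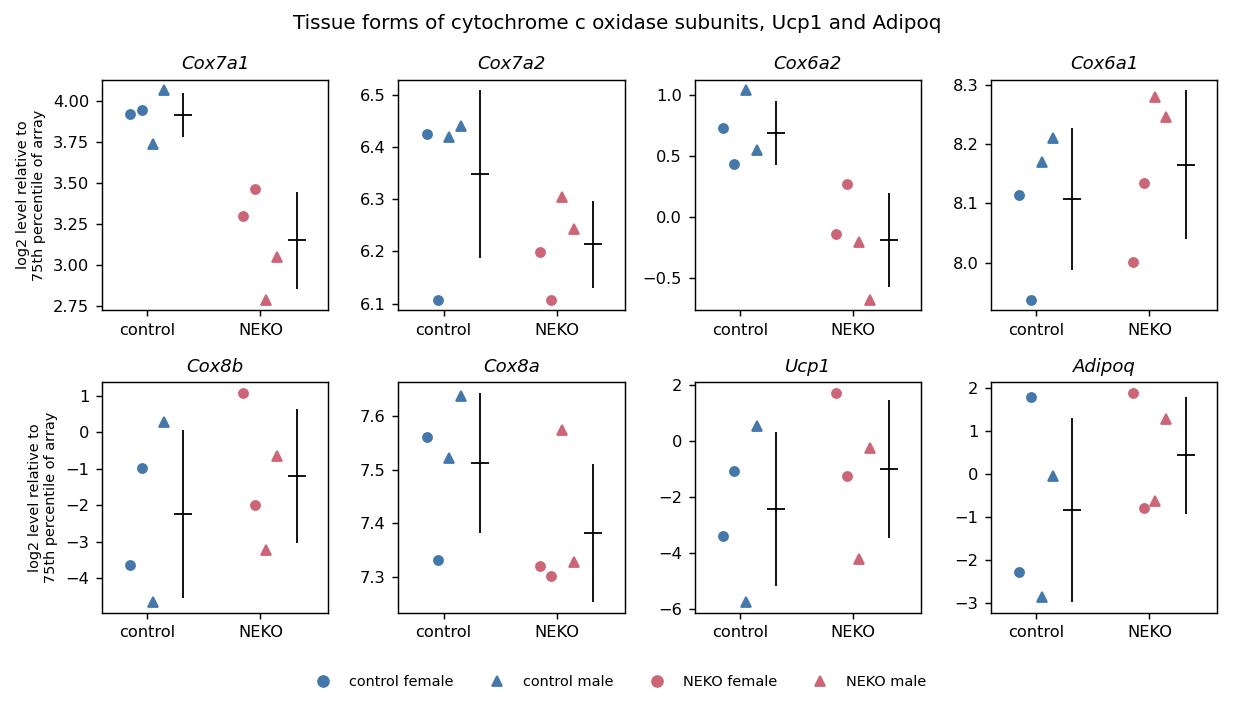
Level, as log2 signal less the 75th percentile of its array (y axis, a separate scale in each panel) in each mouse, with the group mean and SD in black, for 3 pairs of complex IV subunits and for the fat genes Ucp1 and Adipoq. Cox7a1 and Cox6a2 separate the groups, at -0.77 and -0.88, their liver forms Cox7a2 and Cox6a1 overlap, and Cox8b spreads over the mice as Ucp1 does.

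Genes that work with the respiratory chain were read from lists, and 0 genes of the mitochondrial lists were called in either direction by limma. Electron carriers and entry enzymes were 17 of 19 below 0 with a median of -0.15. At an unadjusted p under 0.05 limma gave 4 lower (21.1%) and 1 higher, Sqor, where 10.1% and 8.16% of named genes were lower and higher. Cycs, the cytochrome c that carries electrons to complex IV, was at -0.30 (SE 0.10, adjusted p = 0.199 from limma) and Cyc1, the cytochrome c1 of complex III, at -0.26 (SE 0.11, adjusted p = 0.263 from limma). Gpd2, which feeds electrons from cytosolic glycerol phosphate, was at -0.85 (SE 0.25, adjusted p = 0.173 from limma), with NEKO males at 0.56 and 0.46 and NEKO females at 1.64 and 1.20, against 1.59 to 2.17 in controls. Sqor, which feeds in electrons from sulphide, was above all controls in every NEKO mouse, at 0.28 (SE 0.09, adjusted p = 0.196 from limma).

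In the tricarboxylic acid cycle list, 15 of 16 genes were below 0 with a median of -0.12. The median was -0.01 in females, with 8 of 16 below 0, and -0.21 in males, with 15 below 0. Pdhb, a subunit of pyruvate dehydrogenase, was at -0.36 (SE 0.10, adjusted p = 0.163 from limma). Idh3g, a subunit of the NAD-dependent isocitrate dehydrogenase, was at -0.31 (SE 0.09, adjusted p = 0.171 from limma). The groups of both did not overlap (12.5% of the list lay lower in this way, against 5.06% of named genes). Genes of mitochondrial DNA expression were 12 of 14 below 0, with a median of -0.07. Here too the sexes differed, with a median of 0.01 in females (5 of 14 below 0) and -0.14 in males (13 below 0). Of assembly factors outside the Nduf prefix 20 of 34 were below 0, with a median of -0.06. Of these 34, 3 were above all controls in every NEKO mouse, Coa5 (0.29), Cox16 (0.28) and Ttc19 (0.20), as were 4.49% of named genes. Coa5 and Cox16 act in complex IV assembly and Ttc19 in complex III. Genes of mitochondrial membranes and import were 11 of 19 below 0, with a median of -0.03. Differences between lists were not tested.

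Among 13 regulators of mitochondrial genes the median was -0.01, and 2 lay below all controls in every NEKO mouse (15.4%, against 5.06% of named genes). Ppargc1a, the coactivator PGC-1alpha, was 4.54 and 4.02 in control females and 3.87 and 4.17 in control males, and 3.78 and 3.42 in NEKO females and 3.58 and 3.44 in NEKO males. The change was -0.60 (SE 0.15, adjusted p = 0.139 from limma). Esrra, the estrogen-related receptor that PGC-1alpha activates, was 4.31, 4.22, 4.40 and 4.48 in control replicates 1, 8, 4 and 7 and 3.96, 4.17, 4.09 and 4.06 in NEKO replicates 2, 3, 5 and 6, a change of -0.28 (SE 0.08, adjusted p = 0.170 from limma). Control replicate 8 had the lowest Esrra level of the controls. Esrrb was at -0.69 (SE 0.24, adjusted p = 0.212 from limma), with NEKO males lowest at -0.44 and -0.63. Nrf1, Gabpa and Yy1, whose motif letters were counted above, were at 0.02, 0.00 and 0.07. Ppargc1b, a relative of Ppargc1a, was at -0.10 (SE 0.21).

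Of 19 Nrf2 target genes tested, 18 were above 0 with a median of 1.20, and 1, Txnrd1, was called (1.30, SE 0.17, adjusted p = 0.049 from limma). Against controls of the same sex their median change was 0.70 in females and 1.66 in males.

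Marker genes of kidney cell types, which bear on the composition of the samples, were read in the same way. Proximal tubule markers had a median change of 0.00 with 6 of 12 below 0. All 7 thick ascending limb markers (median -0.23), 5 of 6 distal convoluted tubule markers (-0.53), 7 of 8 principal cell markers (-0.29) and all 8 intercalated cell markers (-0.90) were below 0. Thick ascending limb markers had a median of -0.07 in females (4 of 7 below 0) and -0.47 in males. For distal convoluted tubule markers it was -0.27 and -0.76, and for principal cell markers -0.12 and -0.45. In thick ascending limb markers the medians by mouse of NEKO females, 0.03 and 0.05, lay within those of controls (-0.16 to 0.17). In intercalated cell markers the summed level ran from 5.28 to 5.72 in controls and from 2.93 to 4.76 in NEKO mice, and the medians by mouse were -0.42 and -0.25 in NEKO females and -1.16 and -1.59 in NEKO males. Against controls of the same sex, the intercalated cell markers had a median change of -0.62 in females and -1.11 in males, and the respiratory chain genes, as given above, one of -0.13 and -0.21. Among lists outside the nephron, 5 of 6 urothelium markers were above 0, with a median change of 1.33 (0.21 in females and 2.32 in males), and the medians by mouse ran from -0.82 to 0.72 in controls and from 0.59 to 1.80 in NEKO mice. Lymphocyte markers had 4 of 6 above 0 and a median of 0.11, with medians of 0.77 and 0.70 in NEKO males and -0.32 and -0.22 in NEKO females. Macrophage markers had 5 of 8 above 0 (median 0.08), endothelial markers 5 of 6 (0.17) and podocyte markers 3 of 5 (0.22). The part of cell composition in the respiratory chain values was not tested.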

How the data were processed

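Kidney RNA of 4 NEKO and 4 control mice was measured on 8 Agilent 1-colour arrays. The authors deposited scanner output with intensity values per spot, and a matrix of log2 values. The processed signal is background-subtracted and not normalised between arrays, and 99.9% of the matrix values lay within 0.01 of that signal in log2 less the 75th percentile of its array, centred on the probe median. Outlier spots (73 to 172 of 43379 an array) were left out and spots of a probe averaged. Probes were named through RefSeq accessions (26690 of 41174 matched, 18217 genes). Array coordinates are on mm9 and none is printed. A gene was read from its brightest probe that was well above background on at least 4 arrays and had a value on at least 6.

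Groups were compared in limma 3.58.1 (R 4.3.3) with genotype and sex, and Benjamini-Hochberg adjustment over 19593 features, 6023 of them unnamed transcripts. The procedure was tested on simulated data. Single genes were compared by exact two-sided permutation in scipy 1.17.1. Of 19 members with several kept probes, 16 agreed in sign. The text names members called, members whose groups do not overlap (the 10 of largest change each way), the 2 of largest change in each complex and in the assembly factors, complex IV isoform pairs, Atp5g and Sdh genes, and list genes. Uqcrfs1, Ndufa6, Ndufaf3, Ndufaf6, Ndufv1, Ndufs7, Ndufs8, Ndufa2, Ndufa7, Uqcrc1, Atp5o and Atp5e are named outside that rule. The members and lists were chosen with earlier results of these data known. Replicates are separate mice per the labels. Alternatives were other background corrections, scalings, filters, probe rules, models and tests, and leaving out each mouse. The mean spot signal was not used here, so normexp (offset 50) ran on the median signal.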

Additional observations from a re-analysis of the deposited data

Results flagged for a closer look

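Each group of 4 mice was examined for 1 sample far from the others in 30 named genes and in the median over all 88, 62 groups in all, and chance marks about 1 group in 20. There were 3 such groups. In control mice, 1 sample, replicate 8, lay apart at the low end for Atp5d (5.24) and Cox7a2 (6.11). In NEKO mice, replicate 5 lay apart at the high end for Cox8a (7.57). In 0 of the 30 genes did the sexes separate in opposite directions.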

How the results depend on the processing

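The median change of the respiratory chain genes stayed below 0 under every alternative run, from -0.20 (without control replicate 8) to -0.12 (quantile normalization). Counts of called genes did not: 1 gene, Cox7a1, was called lower under normexp background correction and 1, again Cox7a1, when genotype was fitted within each sex and the effects averaged. The methods' comparison called 1 gene higher and 32 lower (36.4%) without adjustment, where it called 743 of 13570 named genes higher and 882 lower (6.5%), and it called 0 of the set after adjustment. Under normexp 0 genes separated higher. Leaving out each mouse in turn, the genes that separated lower numbered 15 to 55, where 5.7% to 8.72% of named genes did. The called genes stayed at 0 each way, 1 gene separated higher and 0 had an interaction. Without NEKO replicate 3 or 5, 23 or 25 separated lower, where 7.92% or 8.27% of named genes did. Leaving out both arrays of highest adipocyte level, chosen after seeing the data, gave 55, where 11.2% of named genes separated lower. Such a count can only stay or rise when a mouse is left out, in named genes too. The cause of the rise to 55 was not tested.

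Of 690 values of named genes under alternatives, 14 turned sign, all near 0. Sdha was 0.037 under normexp, 0.0093 under quantile normalization and 0.0247 as the mean of its probes, and -0.1026 to 0.0468 without single mice. Sdhc was -0.0075 under normexp, -0.0161 with array weights, and -0.0367 to 0.0803 without single mice. Atp5g3 was 0.0315 under quantile normalization, and -0.1145 to 0.0031 without single mice, the latter without control replicate 1, the K1 control that lacks K5-Cre. No paired analysis was possible because the labels give neither litters nor pairs of mice. Cox8b was well above background on 4 control and 4 NEKO arrays, and its levels spread widely between the mice of each group. Its standard error of 1.34 compares with a median of 0.08 over the 88 genes.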
